A study of Homo sapiens with 18 samples.

Results

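Antisense long noncoding RNAs are named after the gene they face, and 979 of the 26249 gene rows had a name ending in -AS and a digit. Those of at least 1 FPKM (fragments scaled by gene length and library, as deposited) in 3 or more of 18 libraries were taken as members, which gave 325 of the 979. Another 529 antisense rows were under 1 FPKM in every library. Members were thus chosen by their FPKM in these same libraries, so that the levels below are a description. Just inside the limit, FOXP1-AS1 had a third-highest value of 1.01 FPKM (1.0084), and just outside, EIF1B-AS1 had 0.995. At exactly 3 libraries stood 28 members, and 71 reached 1 FPKM in all 18. The gene named before the hyphen, here the sense gene, was in the files for 315 members.

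The libraries were 3' RNA-seq libraries (QuantSeq, which reads the 3' ends of polyadenylated RNA) of the cell lines XG1 and AMO1, which the labels give as multiple myeloma, a cancer of plasma cells. Cells had been kept for 24 h in 1000 nM or 100 nM of YKL-5-124, a covalent inhibitor of the kinase CDK7, or in DMSO, with 3 replicates in each of the 6 groups. The labels do not say whether replicates were separate cultures, so p-values measure only the spread between these samples. All samples of a line are that 1 line, and nothing in the labels gives an engineered allele. The XG1 libraries went against their label. In XG1 the plasma cell genes IRF4, PRDM1 and CD38 averaged under 1 FPKM in every group, and all 10 erythroid marker genes were on, with summed levels of 2914 to 4942 FPKM. Of 10 plasma cell markers in XG1, 6 were on in DMSO, 7 at 100 nM and 5 at 1000 nM, with sums of 66.6 to 148 FPKM. Of 6 myeloid markers 3 were on in each XG1 group and none in AMO1. In AMO1 all 10 plasma cell markers were on, with sums of 5247 to 10699 FPKM, and the erythroid sum was 2.21 to 9.33 FPKM. XG1 is therefore called by its label only. Every comparison of XG1 with AMO1 below carries this difference in cell identity.

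CDK7 is the kinase of the CDK-activating complex and of the general transcription factor TFIIH; it phosphorylates RNA polymerase II as transcription starts and activates the kinases of the cell cycle. Many antisense RNAs start at the promoter of their sense gene and run away from it, which makes them divergent transcripts, and others start inside the sense gene or beyond its end. Promoter antisense RNAs are known for low levels and short lives in the nucleus, while some members are stable hosts of small nucleolar RNAs or carry small reading frames.

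Summed FPKM of all gene rows was lower with YKL-5-124 than in DMSO in every library of both lines, while the summed spike-ins lay between 166717 and 187657 FPKM in every library, so the values appear to be scaled to added spike-in RNA, and a fall of all genes shows as a fall. Row sums ran from 902520 to 1036930 FPKM in XG1 at 1000 nM and from 1221590 to 1425717 in XG1 DMSO. They ran from 431965 to 686266 in AMO1 at 1000 nM and from 1442943 to 1553906 in AMO1 DMSO. Among the AMO1 1000 nM libraries, replicate 2 had the lowest sum (431965). XG1 100 nM replicate 2 ranked genes least like its fellows (Spearman 0.957 and 0.960 over 10206 rows, against 0.973 between the other two), and 248 members reached 1 FPKM in it, against 224 and 215 in replicates 1 and 3. In bulk samples fewer cells and less RNA per cell cannot be told apart. Changes are also given on a relative scale, set to the median gene of each library; on the deposited scale the median of all rows changed by −0.15 (log2) in XG1 and −0.77 in AMO1 at 1000 nM.

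Levels among the members were very unequal. LRRC75A-AS1, now named SNHG29 and known as a host of small nucleolar RNAs, held 41.2% of the members' summed FPKM in XG1 at 1000 nM and 56.3% in XG1 DMSO. In AMO1 it held 57.9% at 1000 nM and 76.5% in DMSO. Next in DMSO came FBXO22-AS1, and after it, in an order that differed between the lines, NCBP2-AS2 and PRMT5-AS1. FBXO22-AS1 had 189, 141 and 228 FPKM in XG1 DMSO and 111, 115 and 118 FPKM in AMO1 DMSO. NCBP2-AS2, which RefSeq lists as protein coding, had 94.1, 90.5 and 99.8 FPKM in XG1 DMSO and 89.5, 106 and 74 FPKM in AMO1 DMSO. PRMT5-AS1 faces the gene of an arginine methyltransferase. The median member mean was 2.50 FPKM in XG1 at 1000 nM and 1.80 in XG1 DMSO, and 1.09 in AMO1 at 1000 nM and 1.12 in AMO1 DMSO. FPKM divides by gene length although a 3' library gives about 1 read per transcript, so the order of levels between genes of unlike length is uncertain. The most common value in a library lay between 0.0711 and 0.158 FPKM, depending on the library. Levels of about that size are taken as a floor, and changes from or to them are uncertain in size. Without LRRC75A-AS1, the members' sum was 2751 ± 148 FPKM in XG1 at 1000 nM and 2523 ± 296 in XG1 DMSO (SD, n = 3 each), ranges that overlap. In AMO1 it was 1229 ± 269 FPKM at 1000 nM and 1628 ± 121 in DMSO (SD, n = 3 each), and no 1000 nM library reached the lowest DMSO library.

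**Figure D1:**
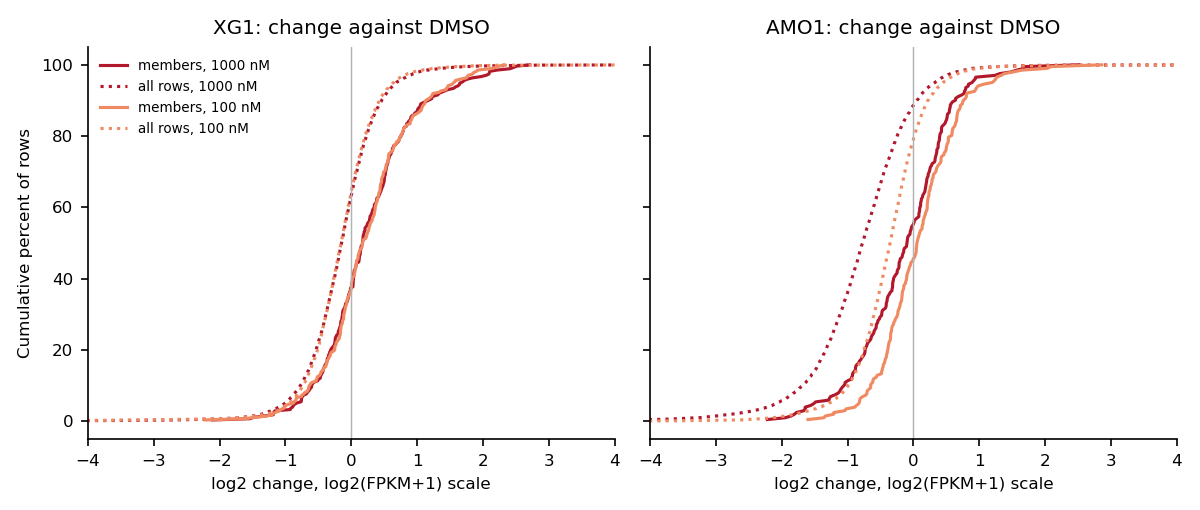
Cumulative percent of rows against the log2 change at 1000 nM and 100 nM against DMSO, on the log2(FPKM+1) scale, for members (solid) and all rows tested (dotted), in XG1 (left, 273 members) and AMO1 (right, 202 members); the median member lay at 0.17 in XG1 and −0.10 in AMO1 at 1000 nM, the median row at −0.15 and −0.77.

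In XG1 the median member changed upward and the median row downward. At 1000 nM against DMSO, 24 of 273 tested members rose and 12 fell, beside 3.69% of all 11810 rows called higher and 13.2% called lower (limma, adjusted p under 0.05). The median member changed by 0.17 and the median row by −0.15 on the log2(FPKM+1) scale. Scaled to the median gene, 38 members rose and 6 fell, beside 9.41% and 10.2% of all rows. All 1000 nM libraries lay above all DMSO libraries in 57 members and below them in 32, beside 11.5% and 30.1% of rows. Members at 1 FPKM or more in no DMSO library numbered 22, and those at that level in no treated library 2, so the level filter itself favours a rise in some. Among rows with a mean of at least 5 FPKM, an alternative chosen after the values were seen, 19 of 107 members rose and 10 fell, beside 5.29% and 19.6% of all rows. The count of called members was 22 without DMSO replicate 3 (19 higher, 3 lower) and also 22 without 1000 nM replicate 2 (16 higher, 6 lower). Numbered LINC rows, long intergenic noncoding RNAs, gave 9 higher and 8 lower of 124, median 0.04, and the small nucleolar RNA host genes 0 higher and 15 lower of 20. The sense genes of the members gave 9 higher and 31 lower of 244, median −0.21.

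At 100 nM against DMSO, 25 XG1 members rose and 9 fell, beside 2.48% and 10% of all rows, and the median member changed by 0.17. By the same scaling 37 rose and 5 fell, beside 7.1% and 7.31%. The groups were apart upward in 48 members and downward in 20, beside 7.19% and 24.6% of rows. The 34 called members became 17 without DMSO replicate 2 (14 higher, 3 lower) and 16 without DMSO replicate 3 (15 higher, 1 lower). Both doses were set against the same DMSO libraries.

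KANSL1-AS1, which lies inside the gene of a subunit of a histone acetyltransferase complex in a region of near-identical copies where reads could be split, had 21.6, 23.9 and 33.2 FPKM in XG1 at 1000 nM, against 4.95, 4.61 and 2.42 FPKM in DMSO. The groups did not overlap, and the change was 2.47 ± 0.24 (SE, adjusted p = 0.000131). SNAI3-AS1, which spans the gene of a Snail family zinc finger factor, had 20.9, 21.3 and 14.1 FPKM at 1000 nM, against 3.84, 2.08 and 2.29 FPKM in DMSO. It rose by 2.41 ± 0.27 (SE, adjusted p = 0.000308). All 1000 nM libraries lay above all DMSO libraries, and at 100 nM it had 12.1, 9.91 and 6.31 FPKM, also above every DMSO library (1.47 ± 0.27 SE, adjusted p = 0.00709).

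ZBED5-AS1, whose start lies beside that of a zinc finger gene, had 68.5, 45.9 and 47.9 FPKM at 1000 nM, against 15.8, 15.3 and 16.2 FPKM in DMSO (1.69 ± 0.19 SE, adjusted p = 0.000335). PDCD4-AS1, opposite the gene of an inhibitor of translation, had 13.9, 10.3 and 13 FPKM at 1000 nM, against 3.18, 1.28 and 2.49 FPKM in DMSO, a change of 2.05 ± 0.24 (SE, adjusted p = 0.000432). Neither overlapped between the groups. Low in DMSO were BZRAP1-AS1, with 14.1, 10.6 and 8.49 FPKM at 1000 nM against 1.5, 1.96 and 0.201 FPKM in DMSO (2.51 ± 0.33 SE, adjusted p = 0.000722), and BHLHE40-AS1, with 6.43, 3.01 and 3.71 FPKM against 0.615, 0.505 and 0.26 FPKM (1.84 ± 0.29 SE, adjusted p = 0.00196). BHLHE40-AS1 passed the level filter in XG1 only through treated libraries, which favours a rise at either dose. NUP50-AS1, facing a nuclear pore gene, was among the leading rises at 100 nM, with 8.63, 8.51 and 5.72 FPKM against 1.74, 0.712 and 0.622 FPKM in DMSO (2.11 ± 0.32 SE, adjusted p = 0.00291).

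Of the members that fell in XG1, OIP5-AS1 had the smallest adjusted p at both doses. OIP5-AS1, known as cyrano, is a conserved RNA that promotes the decay of a microRNA. It had 29.6, 31.2 and 32.4 FPKM at 1000 nM, against 64.6, 67.3 and 80.7 FPKM in DMSO (−1.16 ± 0.16 SE, adjusted p = 0.00085), and at 100 nM 45.9, 31.8 and 37.4 FPKM (−0.88 ± 0.16 SE, adjusted p = 0.00649). LRRC75A-AS1 had 2127, 1770.2 and 1883 FPKM at 1000 nM, against 3224, 2997 and 3517 FPKM in DMSO (−0.75 ± 0.13 SE, adjusted p = 0.00353). No treated library of either member reached the DMSO range. At 100 nM LRRC75A-AS1 changed by −0.66 ± 0.13 (SE, adjusted p = 0.0106), which became adjusted p = 0.052 without DMSO replicate 3.

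DGUOK-AS1, which overlaps the end of a mitochondrial deoxyguanosine kinase gene, had 0.914, 2.16 and 1.8 FPKM at 1000 nM, against 6.49, 11.2 and 13.9 FPKM in DMSO (−2.11 ± 0.40 SE, adjusted p = 0.00476). EML2-AS1, inside a microtubule-binding protein gene, had 0.529, 0.774 and 0.484 FPKM against 2.0, 2.86 and 3.04 FPKM (−1.18 ± 0.26 SE, adjusted p = 0.0115). Both groups of each were apart, but EML2-AS1 passed the level filter only through the DMSO libraries, which favours a fall. VPS9D1-AS1 (−1.18 ± 0.27 SE, adjusted p = 0.0127) and RAB30-AS1 (−0.88 ± 0.21 SE, adjusted p = 0.0155) fell at 1000 nM, and without DMSO replicate 3 their adjusted p were 0.063 and 0.0694. At 100 nM EPB41L4A-AS1 fell by 1.00 ± 0.21 (SE, adjusted p = 0.0127), which was adjusted p = 0.06 without DMSO replicate 3, and PRMT5-AS1 by 0.52 ± 0.15 (SE, adjusted p = 0.0439), which was adjusted p = 0.157 without that library. ADAMTSL4-AS1 changed by −1.14 ± 0.28 (SE, adjusted p = 0.0228) at 100 nM, with 0.119, 0.169 and 0.114 FPKM against 1.12, 1.33 and 2.16 FPKM in DMSO. It too passed the level filter only through the DMSO libraries, and it was adjusted p = 0.0547 without 100 nM replicate 3.

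**Figure D2:**
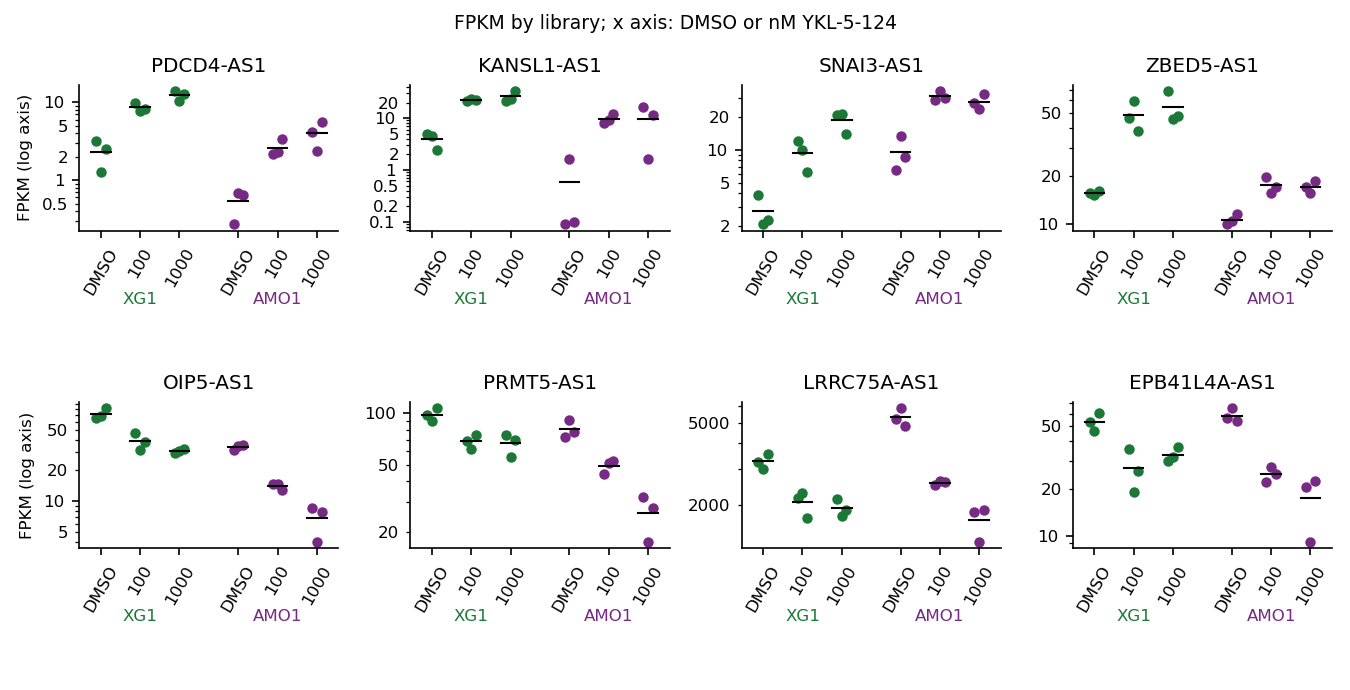
FPKM (log axis) of 8 members in each library, by line (XG1 green, AMO1 purple) and dose, with points for libraries and bars for means of 3; the upper 4 members were higher with YKL-5-124 and the lower 4 lower in both lines.

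Most tested AMO1 members were not called lower at 1000 nM, while most rows were. At 1000 nM against DMSO, 23 of 202 tested members rose and 53 fell, beside 2.51% of 10503 rows higher and 65.7% lower. The median member changed by −0.10 and the median row by −0.77. After scaling to the median gene, 86 members were called higher and 11 lower, beside 23.5% and 24.5% of all rows, so the balance of directions depends on the scale. The 1000 nM libraries lay wholly above DMSO in 25 members and wholly below in 58, beside 2.74% and 68.6% of rows. Of the members tested, 17 reached 1 FPKM in no DMSO library and 2 in no treated library. Among rows with a mean of at least 5 FPKM, 8 of 63 members rose and 27 fell, median −0.39, beside 1.78% and 78.6% of all rows, median −0.99. Numbered LINC rows gave 11 higher and 18 lower of 97, median −0.15, close to the members, and the sense genes 5 higher and 144 lower of 211, median −0.71.

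At 100 nM 29 AMO1 members rose and 17 fell, beside 2.73% and 29.5% of all rows, with a median member change of 0.06 and a median row change of −0.35. With the relative scaling 55 rose and 7 fell, beside 14% and 17%. The groups were apart upward in 40 members and downward in 31, beside 5.9% and 51.2% of rows. The 46 called members (32.2% of all rows were called) became 27 without DMSO replicate 2 (19 higher, 8 lower). Of the rows with a mean of at least 5 FPKM, 12 of 63 members rose and 12 fell, beside 2.36% and 38.7% of all such rows.

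PDCD4-AS1 had 4.19, 2.4 and 5.62 FPKM in AMO1 at 1000 nM, against 0.271, 0.691 and 0.654 FPKM in DMSO (1.68 ± 0.24 SE, adjusted p = 5.07e-05). SNAI3-AS1 had 26.8, 23.9 and 32.3 FPKM at 1000 nM, against 6.56, 13.4 and 8.6 FPKM in DMSO (1.49 ± 0.24 SE, adjusted p = 0.000105). Every 1000 nM library of both members was above every DMSO library. PDCD4-AS1 passed the level filter in AMO1 only through treated libraries, which favours a rise. TOPORS-AS1, which RefSeq now lists as the protein-coding SMIM27 and which faces the gene of a ubiquitin and SUMO ligase, had 38.8, 27.1 and 49.6 FPKM against 10.0, 14.7 and 20.5 FPKM (1.31 ± 0.28 SE, adjusted p = 0.000913). KANSL1-AS1 had 16.5, 1.66 and 11.4 FPKM against 0.089, 1.59 and 0.10 FPKM (2.51 ± 0.53 SE, adjusted p = 0.000854), with 1000 nM replicate 2 just above DMSO replicate 2 and the groups otherwise far apart. CDC37L1-AS1 had 50.9, 50.5 and 46.1 FPKM against 22.9, 5.46 and 22.7 FPKM (1.70 ± 0.40 SE, adjusted p = 0.0019), which was 1.07 without DMSO replicate 2, and its XG1 change at 1000 nM was −0.14 ± 0.57 (SE, adjusted p = 0.904). At 100 nM ST20-AS1 had 2.68, 2.83 and 3.04 FPKM, against 0.403, 0.612 and 0.872 FPKM in DMSO (1.25 ± 0.20 SE, adjusted p = 0.000498). It too passed the level filter in AMO1 only through treated libraries.

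Among falling members, OIP5-AS1 had 8.45, 4.0 and 7.76 FPKM in AMO1 at 1000 nM, against 31.3, 34.4 and 35.4 FPKM in DMSO (−2.22 ± 0.23 SE, adjusted p = 3.20e-06). LRRC75A-AS1 had 1844, 1332 and 1889 FPKM at 1000 nM, against 5211, 5858 and 4839.7 FPKM in DMSO (−1.66 ± 0.18 SE, adjusted p = 4.83e-06). Both stood wholly below DMSO, and their relative changes were −1.33 and −0.69. PSMB8-AS1, opposite an immunoproteasome subunit gene, had 6.95, 3.16 and 8.46 FPKM against 27.8, 25 and 23.1 FPKM (−1.95 ± 0.26 SE, adjusted p = 2.38e-05), and PRMT5-AS1 32.1, 17.6 and 27.6 FPKM against 73, 91.1 and 78.2 FPKM (−1.64 ± 0.23 SE, adjusted p = 3.42e-05). ELFN1-AS1 had 17.4, 9.26 and 11.4 FPKM against 51.5, 48.9 and 41.3 FPKM (−1.86 ± 0.23 SE, adjusted p = 1.43e-05), and FGF14-AS2 fell as well (−1.56 ± 0.22 SE, adjusted p = 4.48e-05). At 100 nM BOK-AS1, opposite a BCL2 family gene, had 0.903, 1.67 and 0.514 FPKM, against 3.46, 6.65 and 5.29 FPKM in DMSO (−1.60 ± 0.25 SE, adjusted p = 0.000385), and UBL7-AS1 changed by −1.02 ± 0.22 (SE, adjusted p = 0.004).

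Between the doses, 2 AMO1 members were higher and 21 lower at 1000 nM than at 100 nM, beside 0.209% and 23.4% of all rows. The dose groups were apart upward in 4 members and downward in 39, beside 0.419% and 48.1% of rows. With the relative scaling 6 were higher and 3 lower, beside 1.67% and 4.18%. Of the 2 that were higher, CCND2-AS1, opposite the cyclin D2 gene, had 2.63, 2.2 and 2.0 FPKM at 1000 nM and 0.37, 0.365 and 0.839 FPKM at 100 nM (1.11 ± 0.25 SE, adjusted p = 0.0124), and TOB1-AS1 6.64, 5.33 and 9.23 FPKM at 1000 nM and 4.21, 2.7 and 4.91 FPKM at 100 nM (0.71 ± 0.23 SE, adjusted p = 0.0412, but adjusted p = 0.159 without 100 nM replicate 2). ELFN1-AS1 (−1.24 ± 0.23 SE, adjusted p = 0.00606), OIP5-AS1 (−1.01 ± 0.23 SE, adjusted p = 0.014) and PRR34-AS1 (−0.87 ± 0.21 SE, adjusted p = 0.0151) led the lower ones, and without 100 nM replicate 2 PRR34-AS1 had adjusted p = 0.0756. The 23 calls became 10, 5 and 8 without 100 nM replicates 1, 2 and 3, and 15 without 1000 nM replicate 2. In XG1 the only member that differed between doses was LHX5-AS1, beside 0.0677% of rows higher and 0.322% lower. With the relative scaling 1 XG1 member was higher and 2 were lower, beside 0.161% and 0.754% of rows. The XG1 dose groups were apart upward in 17 members and downward in 15, beside 6.62% and 6.49% of rows. LHX5-AS1 had 3.07, 2.58 and 1.49 FPKM at 1000 nM and 0.107, 0.159 and 0.117 FPKM at 100 nM (1.55 ± 0.26 SE, adjusted p = 0.0364), with the groups apart. It entered the fit only through its 1000 nM libraries, so that the level filter chose it for this difference and the p-value is no independent support. In the 6 fits that left out a DMSO or 100 nM library it did not pass, with adjusted p between 0.0544 and 0.0793.

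XG1 and AMO1 shared some of their calls. At 1000 nM, of 164 members tested in both lines, 8 rose in both, which is 44.4% of the 18 XG1 rises and 40.0% of the 20 AMO1 rises among them. These were IQCH-AS1, KANSL1-AS1, PDCD4-AS1, SNAI3-AS1, ST20-AS1, TOB1-AS1, TOPORS-AS1 and ZBED5-AS1, and all 8 were also called higher in both lines on the relative scale. Falls shared by the lines numbered 9 of 10 in XG1 (90.0%) and 9 of 45 in AMO1 (20.0%): BOLA3-AS1, DGUOK-AS1, EPB41L4A-AS1, LRRC75A-AS1, MAPKAPK5-AS1, OIP5-AS1, PRMT5-AS1, PXN-AS1 and RNASEH1-AS1. On the relative scale 2 of these 9, LRRC75A-AS1 and OIP5-AS1, were called lower in both lines, and the AMO1 change of MAPKAPK5-AS1 had the opposite sign there (0.24). At 100 nM 8 members rose in both lines (50% of 16 in XG1 and 32.0% of 25 in AMO1), with BZRAP1-AS1, CHKB-AS1 and ITPR1-AS1 in place of IQCH-AS1, ST20-AS1 and TOB1-AS1. EPB41L4A-AS1, LRRC75A-AS1, OIP5-AS1 and PRMT5-AS1 fell in both at 100 nM, which is 57.1% of 7 in XG1 and 28.6% of 14 in AMO1. Of all AMO1 rows 65.7% were called lower and 2.51% higher at 1000 nM, and 29.5% and 2.73% at 100 nM. The share of all rows called alike in both lines was not counted, so shared calls are not read as particular to the members. THUMPD3-AS1, which faces a tRNA methyltransferase gene, was higher in XG1 and lower in AMO1 at 1000 nM. It had 47.1, 36.8 and 34 FPKM at 1000 nM and 28.9, 17.9 and 26.7 FPKM in DMSO in XG1 (0.68 ± 0.21 SE, adjusted p = 0.0447). In AMO1 it had 3.79, 3.0 and 4.24 FPKM at 1000 nM and 6.66, 7.02 and 7.35 FPKM in DMSO (−0.78 ± 0.19 SE, adjusted p = 0.00205), and its relative change there was 0.02.

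**Figure D3:**
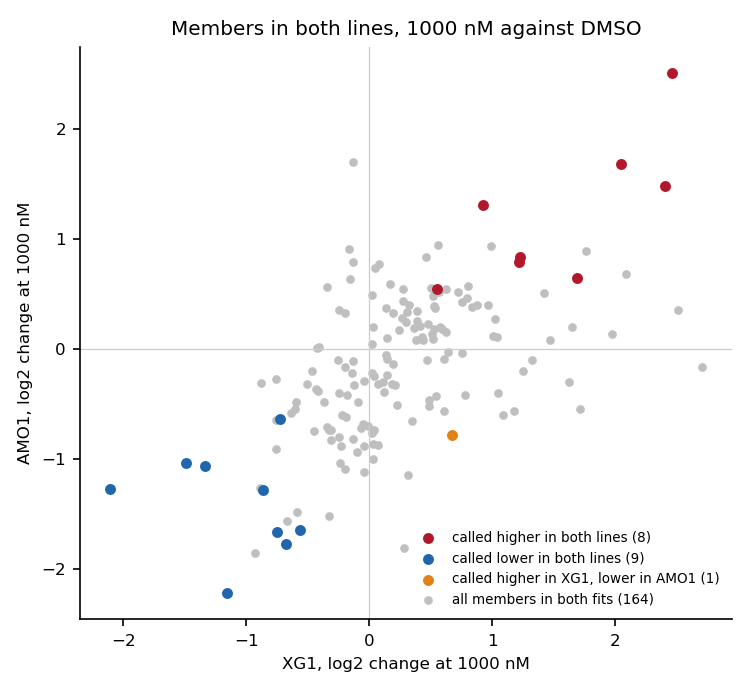
Log2 change at 1000 nM against DMSO in AMO1 (vertical) against that in XG1 (horizontal) for the 164 members tested in both lines, coloured by calls; 8 members were called higher and 9 lower in both, and THUMPD3-AS1 was called higher in XG1 and lower in AMO1.

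Members changed upward relative to their sense genes in most pairs. In AMO1 at 1000 nM, 144 pairs had both rows tested, and the antisense change lay above the sense change in 119 of them and below it in 25. Median changes were −0.09 for the antisense and −0.74 for the sense row. Both fell in 31 pairs, the member rose while the sense gene fell in 10, and 64 sense genes fell with a member that was not called. Of all AMO1 rows 2.51% were called higher and 65.7% lower. Ratios of antisense to sense level were higher in every 1000 nM library than in every DMSO library in 74 pairs and lower in 7, where the exact two-sided permutation test gives its smallest p of 0.1. This p was not adjusted over the pairs, and ratios of other pairs of rows were not counted beside them. In XG1 at 1000 nM 157 of 218 pairs had the antisense change above the sense change, with 61 pairs of ratios wholly higher and 17 wholly lower. Both rose in 2 XG1 pairs, both fell in 1, and the pair moved in opposite directions in 3. Of all XG1 rows 3.69% were called higher and 13.2% lower. At 100 nM the antisense change was above in 112 of 144 AMO1 pairs and 154 of 218 XG1 pairs. Across pairs the correlation of the changes, as a description, was low (Pearson 0.247 in AMO1 and 0.122 in XG1 at 1000 nM; pairs share libraries and are no replicates). No source used here states whether counting kept to one strand, so a read from an overlap could have gone to either row. The pseudocount of 1 shrinks changes of low rows. With a pseudocount of 0.1 the ratios were apart in either direction in 74 AMO1 pairs and 79 XG1 pairs at 1000 nM, and with 1 in 81 and 78. These totals do not show how many lay upward.

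The 10 pairs that moved apart in AMO1 at 1000 nM had a rising member and a falling sense gene on the deposited scale. Relative to the median gene all 10 members were again called higher, while their sense genes changed by −0.68 (PSMG3) to 0.38 (SRRM2). Among them the relative changes of STARD7 (−0.60) and SLC25A5 (−0.64) kept their sign, and those of ZBED5 (0.09) and DICER1 (0.17) did not. STARD7-AS1 had 2.61, 2.32 and 2.79 FPKM at 1000 nM, against 0.957, 1.11 and 0.538 FPKM in DMSO (0.95 ± 0.19 SE, adjusted p = 0.000551). Its sense gene STARD7, a lipid transfer protein, had 86.4, 57.2 and 91.3 FPKM at 1000 nM, against 220.2, 253 and 217 FPKM in DMSO (−1.57 ± 0.21 SE, adjusted p = 2.71e-05). The ranges of both rows were apart, in opposite directions. SLC25A5-AS1 had 4.38, 2.86 and 3.38 FPKM against 1.18, 2.99 and 2.17 FPKM (0.57 ± 0.22 SE, adjusted p = 0.0353), with overlapping ranges, while SLC25A5, a mitochondrial carrier of ADP and ATP, had 427, 202 and 361 FPKM against 899.8, 969 and 1018 FPKM (−1.61 ± 0.24 SE, adjusted p = 6.95e-05). Without DMSO replicate 1 the call of SLC25A5-AS1 was lost (adjusted p = 0.206). ZBED5-AS1 had 17.2, 15.7 and 18.6 FPKM against 9.98, 10.4 and 11.5 FPKM (0.64 ± 0.18 SE, adjusted p = 0.00673), and ZBED5 5.32, 3.59 and 5.24 FPKM against 7.57, 8.92 and 9.08 FPKM (−0.75 ± 0.20 SE, adjusted p = 0.0041).

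SRRM2-AS1, opposite a splicing factor gene, changed by 0.94 ± 0.23 (SE, adjusted p = 0.0028) and SRRM2 by −0.56 ± 0.21 (SE, adjusted p = 0.0279). DICER1-AS1 changed by 0.91 ± 0.32 (SE, adjusted p = 0.0196) and DICER1, the microRNA-processing enzyme, by −0.51 ± 0.19 (SE, adjusted p = 0.0249). The other members were TOPORS-AS1, ST20-AS1, RTCA-AS1 (0.77), CIRBP-AS1 (0.46) and PSMG3-AS1 (0.43). Leaving out 1 library ended the calls of DICER1-AS1 (adjusted p up to 0.0996, without 1000 nM replicate 3), RTCA-AS1 (0.192, without DMSO replicate 3), CIRBP-AS1 (0.149, without 1000 nM replicate 1) and PSMG3-AS1 (0.0889, without DMSO replicate 1). AMO1 pairs that moved apart at 100 nM included those of DLG3-AS1, PAXBP1-AS1, SLC25A5-AS1 and STARD7-AS1. PAXBP1-AS1 (0.66 ± 0.20 SE, adjusted p = 0.0242) lost its call without 100 nM replicate 2 (adjusted p = 0.115). DLG3-AS1 had 1.64, 3.58 and 2.07 FPKM at 100 nM, against 0.075, 0.0997 and 0.773 FPKM in DMSO (1.38 ± 0.33 SE, adjusted p = 0.00674). It passed the level filter in AMO1 only through treated libraries, which favours a rise.

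In XG1 RNASEH2B-AS1 had 7.75, 4.51 and 1.38 FPKM at 1000 nM, against 0.131, 0.13 and 0.159 FPKM in DMSO, where it was under 1 FPKM throughout (2.09 ± 0.42 SE, adjusted p = 0.00631). It thus passed the level filter only through treated libraries, which favours a rise. RNASEH2B, a subunit of ribonuclease H2, had 9.82, 12.5 and 13.1 FPKM against 19.1, 21 and 22.7 FPKM (−0.78 ± 0.21 SE, adjusted p = 0.0285). The pair moved apart at 100 nM too (2.19 ± 0.42 SE, adjusted p = 0.0078 for the member). LAMTOR5-AS1 rose by 1.47 ± 0.36 (SE, adjusted p = 0.0187) and LAMTOR5, a Ragulator subunit, changed by −0.43 ± 0.12 (SE, adjusted p = 0.0305); without DMSO replicate 3 the member had adjusted p = 0.0785. PXN-AS1 went the other way, with 45.6, 39.2 and 30.2 FPKM at 1000 nM against 60.8, 71.2 and 77.6 FPKM in DMSO (−0.86 ± 0.23 SE, adjusted p = 0.0243), while PXN, the focal adhesion protein paxillin, had 82.3, 65.8 and 62.7 FPKM against 48.3, 45.6 and 45.5 FPKM (0.58 ± 0.15 SE, adjusted p = 0.0213). Without 1000 nM replicate 3, PXN-AS1 had adjusted p = 0.0928. At 100 nM BHLHE40-AS1 rose (1.44 ± 0.29 SE, adjusted p = 0.0105) and BHLHE40, a transcription factor, fell (−0.78 ± 0.20 SE, adjusted p = 0.0261).

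**Figure D4:**
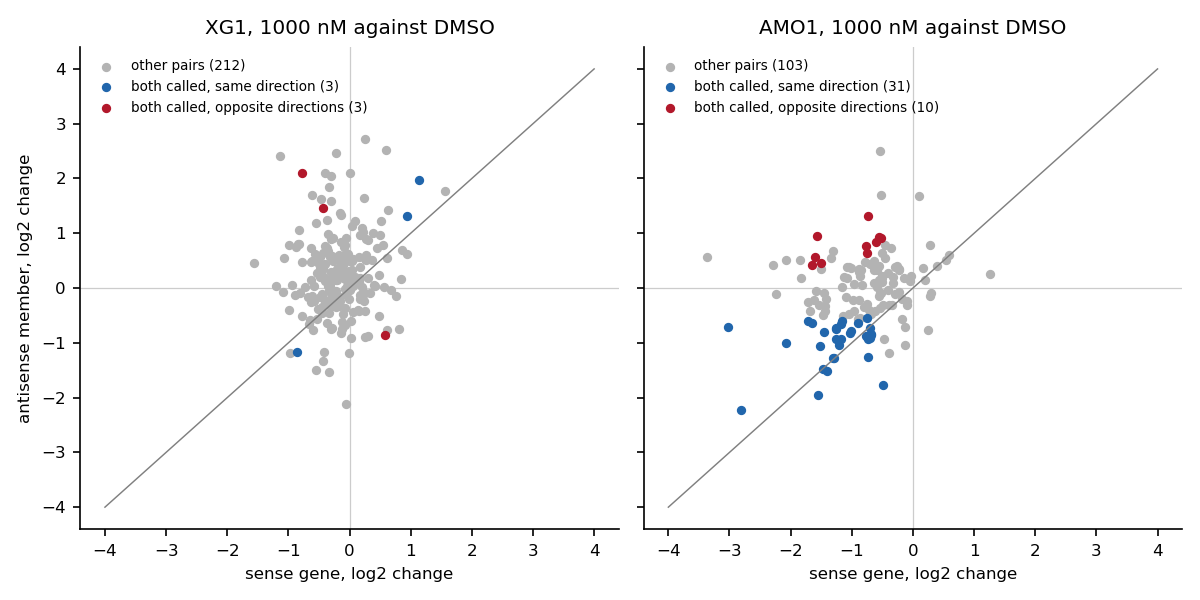
Log2 change of the antisense member (vertical) against that of its sense gene (horizontal) at 1000 nM against DMSO, in XG1 (left, 218 pairs) and AMO1 (right, 144 pairs), with the line of equal change; in AMO1 119 pairs lie above that line, 31 pairs fell together and 10 moved apart.

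Position relative to the sense gene was read by name from GENCODE release 29, on GRCh38, since an annotation of the files' build, hg19, was not used here. On the strand opposite the sense gene lay 313 members, and 212 had a start within 1 kb of the sense start, 63 of them head to head with it. By these classes, chosen after the calls were seen, 18 of 128 AMO1 members with starts within 1 kb rose and 27 fell at 1000 nM, median 0.09, where 2.51% of all rows were higher and 65.7% lower. With starts farther apart 4 of 68 rose and 23 fell, median −0.34. By relative scaling the AMO1 counts were 67 higher and 5 lower of 128, median 0.70, for near starts. For far ones they were 17 higher and 6 lower of 68, median 0.22. Of all AMO1 rows 23.5% were higher and 24.5% lower on that scale. In XG1 at 1000 nM the counts were 18 higher and 6 lower of 184, median 0.28, for near starts. For far ones they were 5 higher and 6 lower of 80, median 0.04. Of all XG1 rows 3.69% were called higher and 13.2% lower at that dose. The relative XG1 counts were 29 higher and 3 lower of 184 against 8 higher and 3 lower of 80, beside 9.41% and 10.2% of all rows. A 3' end of the member lay in an exon of some protein-coding gene for 71 members. In AMO1 at 1000 nM 2 of 50 such members rose and 15 fell, median −0.40, and of the other 152 members 21 rose and 38 fell, median 0.01, with relative medians of 0.29 and 0.64. In XG1 at 1000 nM the medians of these classes were 0.12 (5 higher, 5 lower of 61) and 0.18 (19 higher, 7 lower of 212). The 45 members now named as divergent transcripts (-DT) had a median of 0.14 in both lines at 1000 nM, with 3 higher and 3 lower of 42 in XG1 and 3 higher and 7 lower of 31 in AMO1. No difference between classes was tested.

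Lines differed in many members in DMSO. XG1 was higher than AMO1 in 125 of 325 members and lower in 40, beside 45% and 19.8% of 12792 rows, 64.8% together. The lines were apart upward in 144 members and downward in 42, beside 50.6% and 23.5% of rows. With the relative scaling the split was 88 higher and 59 lower, beside 32.3% and 33.5%. At 1 FPKM or more in XG1 libraries only were 69 members, and in AMO1 libraries only 18, which the choice by level sets apart. TP73-AS1 had 12.9, 12.1 and 16.2 FPKM in XG1 and 0.0864, 0.225 and 0.135 FPKM in AMO1, a difference of 3.67 ± 0.16 (SE, adjusted p = 2.55e-12). PYCARD-AS1, which overlaps the start of the gene of an inflammasome adaptor, had 41.5, 56.7 and 58 FPKM in XG1 and 0.0827, 1.29 and 0.0952 FPKM in AMO1 (5.23 ± 0.27 SE, adjusted p = 1.68e-11), and PYCARD itself differed by 7.53 ± 0.15 (SE, adjusted p = 9.70e-17). SVIL-AS1, TBX2-AS1 and PPP1R26-AS1 were under 1 FPKM in every AMO1 DMSO library (3.41, 4.04 and 2.32). EIF3J-AS1 was on in both, with 43.9, 48.4 and 51.8 FPKM in XG1 and 6.75, 9.92 and 9.93 FPKM in AMO1 (2.33 ± 0.18 SE, adjusted p = 4.02e-09). Lower in XG1 were PSMB8-AS1, with 0.157, 0.154 and 0.191 FPKM in XG1 and 27.8, 25 and 23.1 FPKM in AMO1 (−4.49 ± 0.41 SE, adjusted p = 4.21e-08), PRR34-AS1 (−3.16 ± 0.22 SE, adjusted p = 1.01e-09), BOK-AS1 (−2.40), USP30-AS1 (−2.48), BZRAP1-AS1 (−2.70) and GNAS-AS1 (−1.84). Of 257 pairs tested, member and sense gene were both higher in XG1 in 70, both lower in 7, with the member higher and the sense gene lower in 10 and the reverse in 8.

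The response itself differed between lines (XG1 minus AMO1) in 42 members at 1000 nM, 40 of them positive and 2 negative, beside 32.8% and 1.5% of all rows. On the relative scale 11 were positive and 20 negative, beside 10.1% and 6.8%, so the balance of signs depends on the scale. Without AMO1 DMSO replicate 2 the 42 became 25, and without AMO1 1000 nM replicate 2 they became 24. BZRAP1-AS1 differed by 2.16 ± 0.37 (SE, adjusted p = 0.000537), from a rise in XG1 and 0.36 ± 0.18 (SE, adjusted p = 0.0929) in AMO1, and also on the relative scale (1.14). USP30-AS1 had 0.498, 1.02 and 0.456 FPKM at 1000 nM and 0.137, 0.135 and 0.166 FPKM in DMSO in XG1, and 2.55, 1.26 and 1.72 FPKM at 1000 nM and 5.94, 6.87 and 3.75 FPKM in DMSO in AMO1 (difference 1.71 ± 0.32 SE, adjusted p = 0.000875). BOK-AS1 was under 1 FPKM in all these XG1 libraries and fell in AMO1, so that its difference (1.63) is the AMO1 fall alone and says nothing of a response in XG1. HIF1A-AS2 had 27.2, 21.8 and 24 FPKM at 1000 nM and 21.8, 18.8 and 17.4 FPKM in DMSO in XG1, and 5.99, 4.14 and 6.14 FPKM at 1000 nM and 13.4, 16.6 and 9.91 FPKM in DMSO in AMO1 (difference 1.46 ± 0.30 SE, adjusted p = 0.00193). LRRC75A-AS1 differed by 0.91 ± 0.21 (SE, adjusted p = 0.00402), but by 0.16 with no call on the relative scale. At 100 nM 6 members differed, all positive, beside 5.37% of rows positive and 0.86% negative, and on the relative scale 8 were positive and 4 negative, beside 6.28% and 3.21%. TMPO-AS1, opposite a nuclear lamina gene, had 8.79, 11.3 and 7.91 FPKM at 100 nM and 5.19, 3.26 and 4.99 FPKM in DMSO in XG1, and 0.499, 1.13 and 1.09 FPKM at 100 nM and 1.29, 1.56 and 1.33 FPKM in DMSO in AMO1 (difference 1.27 ± 0.28 SE, adjusted p = 0.0119). The 6 became 10 and 11 without XG1 DMSO replicates 1 and 3, 19 without XG1 100 nM replicate 3 and 12 without AMO1 1000 nM replicate 2.

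Of 24 antisense RNAs listed for their known roles, 14 were members and 10 were under the level rule. MAPKAPK5-AS1, opposite a stress kinase gene, fell in both lines at 1000 nM (−0.72 ± 0.19 SE, adjusted p = 0.0232 in XG1 and −0.64 ± 0.22 (SE, adjusted p = 0.0211) in AMO1). TMPO-AS1 fell in AMO1 (−0.72 ± 0.19 SE, adjusted p = 0.00425), and so did TMPO (−3.02 ± 0.21 SE, adjusted p = 6.20e-08). GATA2-AS1, opposite the gene of a factor of blood stem and erythroid cells, had 4.78, 5.87 and 3.68 FPKM in XG1 at 1000 nM, against 1.29, 0.634 and 2.21 FPKM in DMSO (1.32 ± 0.30 SE, adjusted p = 0.0124), and GATA2 rose with it (0.94 ± 0.17 SE, adjusted p = 0.00442). Both were under 1 FPKM in the AMO1 1000 nM and DMSO libraries. HOXB-AS3 rose in AMO1 at 1000 nM, with 8.27, 4.12 and 13.7 FPKM against 3.51, 4.48 and 1.14 FPKM in DMSO (1.24 ± 0.39 SE, adjusted p = 0.0123), although the groups overlapped. MCM3AP-AS1 (−0.54 ± 0.18 SE, adjusted p = 0.0139), SBF2-AS1 (−0.58 ± 0.21 SE, adjusted p = 0.0224) and NUTM2A-AS1 (−0.88 ± 0.37 SE, adjusted p = 0.0467) fell in AMO1 at 1000 nM. Of all AMO1 rows 65.7% were called lower at 1000 nM, and the median row changed by −0.77. On the log2(FPKM+1) scale the AMO1 falls of MAPKAPK5-AS1, TMPO-AS1, MCM3AP-AS1 and SBF2-AS1 were smaller than that of the median row. The pseudocount of 1 shrinks changes of low rows, TMPO-AS1 among them, so this order need not hold for FPKM itself. At that dose ZEB1-AS1, PSMA3-AS1 and GABPB1-AS1 passed in neither line, with AMO1 changes of −0.10, −0.25 and −0.20, and neither did CD27-AS1 in AMO1 (0.24 ± 0.19 SE, adjusted p = 0.275) or TTN-AS1 in XG1 (−0.01 ± 0.27 SE, adjusted p = 0.983), the lines each was tested in. HOXA-AS2 reached 1 FPKM in exactly 3 libraries, 2 of AMO1 at 1000 nM and 1 of XG1 at 100 nM, and was tested in neither line alone.

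Promoter windows of 300 bases, from 250 before to 50 after the annotated start (RefSeq, GRCh38.p14), were found for 245 members. They are shown for SNAI3-AS1 and ZBED5-AS1, called higher, and OIP5-AS1 and LRRC75A-AS1, called lower, in both lines at both doses, and were picked for those calls. Capitals mark matches to searched motifs on either strand. They lie at chr16:88663123-88663422 (plus strand), chr11:10857967-10858266 (plus strand), chr15:41283740-41284039 (plus strand) and, under the name SNHG29, chr17:16438737-16439036 (plus strand).
SNAI3-AS1: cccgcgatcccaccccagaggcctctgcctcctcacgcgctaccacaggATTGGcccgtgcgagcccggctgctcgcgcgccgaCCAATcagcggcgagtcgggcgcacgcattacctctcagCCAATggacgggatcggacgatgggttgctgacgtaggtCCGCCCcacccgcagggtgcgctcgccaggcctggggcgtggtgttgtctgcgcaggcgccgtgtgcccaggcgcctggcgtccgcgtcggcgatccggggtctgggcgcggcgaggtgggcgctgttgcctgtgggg
ZBED5-AS1: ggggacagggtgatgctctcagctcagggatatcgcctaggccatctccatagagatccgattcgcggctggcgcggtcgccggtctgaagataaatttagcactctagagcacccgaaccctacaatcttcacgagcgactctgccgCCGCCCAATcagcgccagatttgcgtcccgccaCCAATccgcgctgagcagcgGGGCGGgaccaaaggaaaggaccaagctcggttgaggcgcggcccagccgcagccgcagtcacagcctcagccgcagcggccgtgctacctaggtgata
OIP5-AS1: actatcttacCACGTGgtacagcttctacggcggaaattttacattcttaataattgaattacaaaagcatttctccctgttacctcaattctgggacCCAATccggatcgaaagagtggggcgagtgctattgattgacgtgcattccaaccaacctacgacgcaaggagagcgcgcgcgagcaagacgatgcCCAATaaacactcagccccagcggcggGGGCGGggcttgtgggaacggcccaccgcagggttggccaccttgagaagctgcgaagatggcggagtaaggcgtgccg
LRRC75A-AS1: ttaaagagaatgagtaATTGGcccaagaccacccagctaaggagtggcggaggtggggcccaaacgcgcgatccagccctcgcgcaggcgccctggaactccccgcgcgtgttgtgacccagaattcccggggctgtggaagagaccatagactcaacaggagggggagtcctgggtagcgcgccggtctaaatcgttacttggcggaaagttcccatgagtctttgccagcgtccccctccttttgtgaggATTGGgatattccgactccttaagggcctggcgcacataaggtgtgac

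Within SNAI3-AS1 the CCAAT motif matched 3 times and GGGCGG 1 time. The ZBED5-AS1 window held 2 matches of each, 1 pair of them overlapping. Of the OIP5-AS1 matches 2 were to CCAAT, and the motifs GGGCGG and, elsewhere in that window, CACGTG matched 1 time each. LRRC75A-AS1 had 2 matches, both to the first motif. CCAAT is a box bound by NF-Y. Of the other members with the same calls, PDCD4-AS1 (higher) and EPB41L4A-AS1 (lower) had windows with none of these matches. The ZBED5-AS1 window shared 263 bases with that of ZBED5, whose start lies 164 bases away on the other strand. Over the 245 member windows CCAAT was in 31.4% (34.6% of all 35116 windows), GGGCGG, an Sp1 box, in 58.4% (45.0%) and CACGTG, an E box, in 11.0% (7.26%). TATAAA was in 4.49% (11.5%), TTTGAA, a cell cycle element, in 6.53% (15.2%), TTTGGCGC in 0.408% (0.652%) and TTTCGCGC in 0 windows (0.515%). Median GC content was 64.7% in member windows and 58.7% in all windows.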

How the data were processed

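The 18 libraries were deposited as tables of FPKM per gene, made with HISAT2 and Cuffnorm on hg19 per the submitters' processing notes; no source used here gives versions, the strand setting or a scaling to spike-ins, which is inferred from their even sums. Read depth is therefore unknown. From the deposited FPKM values, log2(FPKM + 1) was fitted with limma 3.58.1 (R 4.3.3; moderated test with a mean trend, Benjamini-Hochberg adjustment over all rows, threshold 0.05) over rows of at least 1 FPKM in 3 libraries, 9 libraries per line, and all 18 for line comparisons. The relative scale used median-ratio size factors. Antisense to sense ratios were compared by exact permutation. Fits were tested on simulated data. Alternatives were a pseudocount of 0.1, no filter, the relative scale, a replicate block, each library left out, and rows with a mean of at least 5 FPKM. Members and lists were chosen with earlier results of these data known. Named are the highest members in DMSO, the 6 called members per direction with the smallest adjusted p, pairs called in opposite directions, and a list of known antisense RNAs (a result under this rule is not reported here); IQCH-AS1, BOLA3-AS1, RNASEH1-AS1, CHKB-AS1 and ITPR1-AS1, the plotted members and the printed windows were chosen after their values were seen.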

Additional observations from a re-analysis of the deposited data

Results flagged for a closer look

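The change at 1000 nM differed between XG1 and AMO1 in 42 members and that at 100 nM in 6, by the interaction term of limma (adjusted p under 0.05), and this difference between lines is why these results are listed. Values are XG1 minus AMO1 differences on the log2(FPKM+1) scale, each with its value on the scale set to the median gene. Positive at 1000 nM on both scales were BZRAP1-AS1 2.16 (relative 1.14), USP30-AS1 1.71 (relative 0.97), BOK-AS1 1.63 (relative 1.13), THUMPD3-AS1 1.46 (relative 0.85), HIF1A-AS2 1.46 (relative 0.80), LRRC75A-AS1 0.91 (relative 0.16), PSMB8-AS1 2.45 (relative 1.57), ZBED5-AS1 1.05 (relative 0.31), GATA2-AS1 1.34 (relative 1.24), PRMT5-AS1 1.08 (relative 0.35), NUP50-AS1 1.93 (relative 1.03), PRR34-AS1 1.15 (relative 0.36), OIP5-AS1 1.06 (relative 0.41), RHOXF1-AS1 0.95 (relative 0.89), BHLHE40-AS1 1.18 (relative 0.50), LHX5-AS1 1.17 (relative 0.76), PITPNA-AS1 0.94 (relative 0.21), GNAS-AS1 0.90 (relative 0.34), P4HA2-AS1 1.17 (relative 0.46), EPB41L4A-AS1 1.10 (relative 0.39) and TBX2-AS1 1.01 (relative 1.09). Negative at 1000 nM were UBXN10-AS1 −1.59 (relative −2.37) and AZIN1-AS1 −1.31 (relative −1.70). At 100 nM the members were BOK-AS1 1.60 (relative 1.37), BZRAP1-AS1 1.73 (relative 1.20), TMPO-AS1 1.27 (relative 1.16), RHOXF1-AS1 1.16 (relative 1.12), P4HA2-AS1 1.43 (relative 1.21) and ZBED5-AS1 0.86 (relative 0.61). Past the threshold on the relative scale too were BZRAP1-AS1, USP30-AS1, BOK-AS1, THUMPD3-AS1, HIF1A-AS2, PSMB8-AS1, GATA2-AS1, RHOXF1-AS1, UBXN10-AS1, AZIN1-AS1 and TBX2-AS1 at 1000 nM and BOK-AS1, BZRAP1-AS1, TMPO-AS1 and RHOXF1-AS1 at 100 nM. Leaving out 1 library ended the 100 nM calls of ZBED5-AS1 in 15 of 18 fits (adjusted p up to 0.123, without AMO1 100 nM replicate 2) and of P4HA2-AS1 in 10 of 18 (up to 0.113, without AMO1 DMSO replicate 2). It also ended the 1000 nM call of AZIN1-AS1 in 10 of 18 (up to 0.113, without XG1 DMSO replicate 2). The difference of UBXN10-AS1 was −1.02 without AMO1 DMSO replicate 2. BOK-AS1 and UBXN10-AS1 were under 1 FPKM in the XG1 1000 nM and DMSO libraries, so their differences at 1000 nM are those of AMO1 alone. GATA2-AS1 was under 1 FPKM in the AMO1 1000 nM and DMSO libraries, so its difference is that of XG1 alone. PSMB8-AS1 and USP30-AS1 were under 1 FPKM in every XG1 DMSO library, and TBX2-AS1 in every AMO1 DMSO library, so a fall there could hardly be seen. In XG1 BHLHE40-AS1 passed the level filter only through treated libraries and LHX5-AS1 only through 1000 nM libraries, which favours a rise in XG1. Their p-values are thus no independent support. The lines also differ in their marker genes, and the part of that in these values was not tested.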

How the results depend on the processing

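Counts of called members moved by over 1.5 times under these settings. With no filter on low values they were 18 and 11 in XG1 at 1000 and 100 nM, 20 in AMO1 at 100 nM, 2 between the AMO1 doses and 24 for the line difference at 1000 nM. On the relative scale they were 3 and 9 between the doses in XG1 and AMO1 and 12 for the line difference at 100 nM. A pseudocount of 0.1 gave 0 between the XG1 doses. Among rows with a mean of at least 5 FPKM, chosen after seeing the data, fewer members were tested. The counts were 35 and 24 of 63 in AMO1 at 1000 and 100 nM, where the main fit called 76 and 46 of 202. Between the XG1 doses the count was 0 of 107, and between lines 64 of 89, where the main fit called 165 of 325. Without 1 replicate they ran over 22 to 46 and 16 to 33 in XG1 at 1000 and 100 nM, 0 to 1 between its doses, 63 to 77 and 27 to 56 in AMO1, 5 to 31 between its doses, 135 to 170 between lines, and 24 to 51 and 4 to 19 for the line differences. Of these, the AMO1 count at 1000 nM and the count between lines did not move by over 1.5 times in any fit. With the replicate number as a block the count between the XG1 doses was 0, and no other count moved by over 1.5 times. Deviations of same-numbered samples from their group means correlated at −0.0441 to 0.157 in XG1 and −0.178 to 0.125 in AMO1. Those of differently numbered samples correlated at −0.137 to 0.0932 and −0.171 to 0.168. The numbers were not taken as pairs, although in XG1 2 of 9 same-numbered correlations and 0 of 18 others passed 0.1. Of 101 changes of named members, 27 lost their call with no filter and 9 on the relative scale. A pseudocount of 0.1 ended 7 of these calls and a replicate block 6. None of the changes computed under each setting changed sign. Outside these, the AMO1 change of MAPKAPK5-AS1 at 1000 nM was −0.64 as deposited and 0.24 on the relative scale, and that of THUMPD3-AS1 was −0.78 and 0.02. The cause of these moves was not tested. Levels near 1 FPKM limit the precision for most members, and read counts behind the values are unknown.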
